A study of Mus musculus with 16 samples.

Results

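The genes encoded by the mitochondrial genome were examined in the cortex of 5xFAD mice, a transgenic model of Alzheimer's disease, after rapamycin or vehicle diet. They were taken as every gene of the count table whose name starts with mt-, which gave 37 of 47593 genes, and comprised 13 protein genes, 2 rRNA genes and 22 tRNA genes. All of them lay on chromosome MT of GRCm38, 28 annotated on the plus strand and 9 on the minus strand, the latter being mt-Nd6 and 8 tRNA genes. After the low-count filter 30 of the 37 were tested, namely all 13 protein genes, both rRNA genes and 15 tRNA genes.

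The mitochondrial genome is a small circle present in many copies per cell. Both of its strands are transcribed by a dedicated RNA polymerase into long precursors, from which the tRNAs are cut out so that the mRNAs and rRNAs lying between them are released. The mRNAs encode core subunits of respiratory complexes I, III, IV and of the ATP synthase, the rRNAs and tRNAs serve the organelle's own ribosomes, and every other protein needed for these steps is encoded in the nucleus and imported.

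Each group held 4 libraries: female vehicle (replicates 1 to 4), female rapamycin (1, 2, 4 and 5), male vehicle (1 to 4) and male rapamycin (1 to 4). Each library was taken as 1 mouse, since the study's figure legend gives 4 mice per group. Its text instead speaks of samples pooled for sequencing and gives another sample number, and this was not resolved. All 16 mice, so counted, were heterozygous 5xFAD animals on a C57BL/6-SJL background, so that both treatments shared the transgenes of that model, expressed in neurons under the mouse Thy1 promoter. Rapamycin, an inhibitor of the kinase mTOR, was given in the diet from 2 to 5 months of age and the vehicle diet held the carrier without it. By the labels 5 libraries (number 4 of every group and female rapamycin 5) belonged to batch 2 and the other 11 to batch 1. What a batch was is not given in the sources used here. RNA of whole cortex was selected by its poly(A) tails and sequenced as read pairs of 150 bp, and in such bulk tissue fewer cells of a type and less RNA per cell cannot be told apart. Nothing in the labels pairs the mice, and p-values measure the spread between these libraries.

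The libraries held 16393501 to 20593089 counted read pairs with female vehicle, 17372664 to 19862994 with female rapamycin, 16797945 to 20007177 with male vehicle and 16913695 to 18692037 with male rapamycin. The library labelled male rapamycin 4 went against its label, with 9935 read pairs on the X-inactivation transcript Xist and 0 on 4 Y-linked genes (an upper limit of 3 pairs), so results are also given without it. The nuclear rRNA gene Rn18s-rs5 had at most 113 counts per 1000000 pairs (CPM) in batch 2, and between 606 and 2386 CPM in batch 1. Neuron markers summed to 3789 to 6387 CPM, and all genes of the 8 marker lists were detected. Between treatments 0 of 4 oligodendrocyte, 0 of 4 microglia, 0 of 5 striatum and 0 of 5 blood markers passed the test, 1 of 6 neuron and 2 of 6 choroid plexus markers were lower and 1 of 4 astrocyte and 1 of 4 endothelium markers were higher with rapamycin, where 13.3% of all tested genes passed (6.46% higher, 6.86% lower).

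In genome order the genes follow one another almost without a gap, tRNA genes standing between most of the protein and rRNA genes. The largest gap between neighbours was 32 bases, between mt-Tn and mt-Tc. mt-Atp8 and mt-Atp6 share 43 bases, mt-Nd5 and mt-Nd6 share 14 bases from opposite strands and mt-Nd4l and mt-Nd4 share 7 bases. The last 63 bases of mt-Atp8 (bases 142 to 204 of the gene at chrMT:7766-7969, plus strand) are shown because read pairs that touched the overlap were assigned to neither gene. Capitals mark the 43 bases shared with mt-Atp6, which open with its start codon.
mt-Atp8 end: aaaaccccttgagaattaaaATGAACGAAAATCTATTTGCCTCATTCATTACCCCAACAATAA

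Several of the protein genes end without a complete stop codon, which the poly(A) tail supplies. The final 30 bases of mt-Co3, mt-Nd4 and mt-Cytb are set beside those of mt-Co1 because the tail is what the oligo(dT) selection captured. Capitals mark the single base left over after the last whole codon in the first 3, and the complete last codon in mt-Co1.
mt-Co3 end: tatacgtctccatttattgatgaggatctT
mt-Nd4 end: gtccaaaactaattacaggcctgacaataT
mt-Cytb end: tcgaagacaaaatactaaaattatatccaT
mt-Co1 end: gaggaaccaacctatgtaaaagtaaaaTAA

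Among the 15 tested tRNA genes 3 passed the treatment test described further on. They are mt-Ty (tyrosine, chrMT:5260-5326), mt-Te (glutamate, chrMT:14071-14139) and mt-Tp (proline, chrMT:15356-15422), given here 5′ to 3′ on their own strand with the anticodon in capitals. All 3 lie on the minus strand. So do the tested genes mt-Ta, mt-Tn and mt-Tc, which did not pass (log2 fold changes 0.11, 0.23 and 0.39). mt-Te stands between mt-Nd6 and mt-Cytb, and mt-Tp is the final annotated gene of the map. Mature mitochondrial tRNAs carry no poly(A) tail, and the counts do not show whether a read pair on a tRNA gene came from the tRNA, from a longer precursor or, since strand was not used in counting, from the opposite strand.
mt-Ty: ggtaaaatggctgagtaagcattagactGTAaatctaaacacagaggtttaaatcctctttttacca
mt-Te: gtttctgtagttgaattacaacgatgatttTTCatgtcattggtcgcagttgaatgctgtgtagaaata
mt-Tp: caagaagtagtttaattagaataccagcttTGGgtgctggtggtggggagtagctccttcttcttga

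Part of the mitochondrial sequence also exists in the nuclear genome. Such copies were sought in annotated transcripts only, so copies in unannotated sequence, whether of tRNA genes or of other parts, could not be found. On the minus strand of chromosome 1 (24611535 to 24616197) the annotation lists 7 genes that match mitochondrial genes at 95% identity or more, in the same order as on the mitochondrial map. Gm29216 matched the last 483 bases of mt-Co1 at 99.8% identity, Gm28661 matched 681 bases of mt-Co2, Gm10925 matched 678 bases of mt-Atp6 and 43 of mt-Atp8, Gm28437 matched 783 bases of mt-Co3, Gm28438 matched 345 bases of mt-Nd3, Gm10222 matched 294 bases of mt-Nd4l and Gm28439 matched the first 876 of the 1378 bases of mt-Nd4. The matches of Gm28661, Gm10925, Gm28437, Gm10222 and Gm28439 held 0 mismatches, and those of Gm29216 and Gm28438 held 1 each, A1066T in mt-Co1 and T3C in mt-Nd3 (mitochondrial base first, position from 1 at the 5′ end of the mitochondrial gene, then the base of the copy). Read pairs that fit both places equally well were left out of the counts, so all the genes matched on chromosome 1 could lose read pairs in this way, mt-Co1 over its last part and mt-Nd4 over its first part included. The search also found less similar matches elsewhere. On chromosome 2 Gm13340 matched all 1545 bases of mt-Co1 at 97.6% identity. Also there, Gm13339 matched 510 of the 1038 bases of mt-Nd2 at 96.7% and Gm13341 matched mt-Co2 at 95.9%. On chromosome 13 Gm4076 matched 954 bases of mt-Nd5 at 95.2%. How many pairs were lost to these copies was not tested. The stretches around the differing bases of Gm29216 and Gm28438 are printed with that base in capitals, followed by the first 60 bases of mt-Co2, which Gm28661 carries unchanged.
mt-Co1: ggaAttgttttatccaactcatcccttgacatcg
Gm29216: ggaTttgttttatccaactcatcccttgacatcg
mt-Nd3: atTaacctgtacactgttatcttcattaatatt
Gm28438: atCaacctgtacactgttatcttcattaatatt
mt-Co2 and Gm28661: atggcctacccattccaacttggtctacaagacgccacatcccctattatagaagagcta

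Levels of the genes differed over several orders of magnitude. On the scale of CPM per kb of gene, mt-Co1, the catalytic subunit of cytochrome c oxidase, was the highest at 10735 ± 3234 (mean ± SD, n = 16), followed by mt-Cytb of complex III at 5557 ± 1682 and mt-Nd1 of complex I at 5046 ± 1656. The spreads of mt-Cytb and mt-Nd1 between libraries overlapped, and whether the levels differed within libraries was not tested. mt-Nd2 at 3020 ± 882, mt-Nd4 at 2537 ± 823 and mt-Nd5 at 2078 ± 584 came next among the protein genes, and mt-Nd6, the only protein gene of the minus strand, stood at 1760 ± 696.

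The 6 protein genes between the end of mt-Co1 and the start of mt-Nd4, each with all or part of its sequence copied on chromosome 1, were counted at far lower levels. They were mt-Atp6 at 214 CPM per kb, mt-Co2 at 160, mt-Co3 at 99.6, mt-Nd3 at 98.4, mt-Nd4l at 55.1 and mt-Atp8 at 15.8, whereas the other 7 protein genes, which include mt-Co1 and mt-Nd4, partly copied on chromosome 1, ranged from 1760 to 10735 CPM per kb. Together these 6 genes held 0.846% of the mitochondrial read pairs and the other 7 held 85.1%. How many pairs of the copied genes, mt-Co1, mt-Nd2, mt-Nd4 and mt-Nd5 included, were dropped for matching both places was not tested, so their values are counts after that loss and not levels of the mRNAs.

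The 2 rRNA genes, which encode the RNAs of the small and the large subunit of the mitochondrial ribosome, had levels of 2675 ± 1106 (mt-Rnr1) and 2375 ± 890 CPM per kb (mt-Rnr2, n = 16). These means differed by less than the spread between libraries, but whether the 2 genes differed within libraries was not tested. Among the tRNA genes mt-Tp was counted highest at 807 CPM per kb, followed by mt-Tc (cysteine) at 333, mt-Tn (asparagine) and mt-Tl2 (leucine) at 140, mt-Te at 134 and mt-Ty at 114. Read pairs that touched several genes were not counted, so these values also depend on the space to the neighbouring genes. They are not levels of the tRNAs, and how many pairs each gene lost was not tested. mt-Tf (phenylalanine) and mt-Td (aspartate) had 0 read pairs in all 16 libraries, for which the upper limit is 3 pairs per library. The other untested genes mt-Tv, mt-Tq, mt-Ts1, mt-Tk and mt-Tt had medians of 0 to 4.5 read pairs per library. For mt-Ty the range was 94 to 215 read pairs and for mt-Tp it was 375 to 1696, so that counting error was a larger part of the spread for the tRNA genes than for mt-Co1, with 171869 to 483692 pairs.

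**Figure D1:**
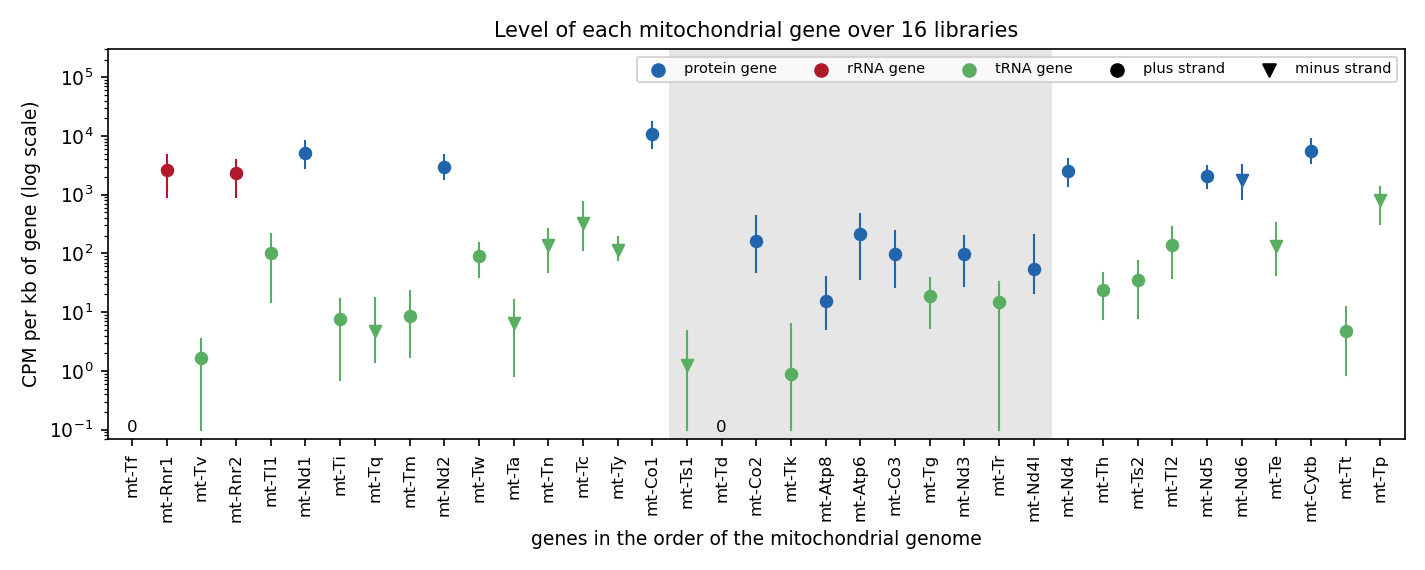
Level of each of the 37 genes in genome order, as CPM per kb of gene on a log scale; points are means and lines run from the lowest to the highest of 16 libraries (cut at 0.1 where a library held 0 pairs), triangles are minus-strand genes and the grey band marks the 11 genes (6 protein, 5 tRNA) between the end of mt-Co1 and the start of mt-Nd4. Copies of the 6 protein genes were found among annotated transcripts of chromosome 1. Copies of the 5 tRNA genes in unannotated sequence could not be found by that search. mt-Co1 stands highest at 10735, the 6 protein genes in the band lie between 15.8 and 214, and 0 marks the genes with no read pair.

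Of the mitochondrial read pairs mt-Co1 held 36.3 ± 2.02% (SD, n = 16), mt-Cytb 13.9 ± 0.858%, mt-Nd1 10.5 ± 0.607%, mt-Nd5 8.38 ± 1.20%, mt-Rnr2 8.04 ± 1.07%, mt-Nd4 7.59 ± 0.364%, mt-Nd2 6.87 ± 0.448%, mt-Rnr1 5.41 ± 0.905% (3.40% to 6.38%) and mt-Nd6 1.95 ± 0.232%. Genes of the minus strand held 1.72% to 2.59% of the mitochondrial pairs.

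To ask whether rapamycin altered the amount of mitochondrial transcripts, the share of all counted read pairs that fell on the 37 genes was compared. In female vehicle libraries 1 to 4 the share was 3.89%, 3.85%, 5.47% and 3.43%, and in female rapamycin libraries 1, 2, 4 and 5 it was 6.88%, 6.98%, 4.17% and 4.19%. In male vehicle libraries 1 to 4 it was 4.28%, 3.27%, 3.63% and 2.64%, and in male rapamycin libraries 1 to 4 it was 5.08%, 6.99%, 3.75% and 4.67%. Female rapamycin 1 and 2 and male rapamycin 2 stood above every other library, while female rapamycin 4 and 5 and male rapamycin 3 lay within the vehicle range of their sex.

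With both sexes together the share was 5.34 ± 1.39% with rapamycin and 3.81 ± 0.831% with vehicle (mean ± SD, n = 8 each). At given sex and batch this was 1.44-fold higher with rapamycin (log2 difference 0.53, SE 0.131, adjusted p = 0.00875 over 7 measures, two-sided exact permutation test within batch and sex, 1200 assignments). The protein, rRNA and tRNA shares rose as well: the rRNA share by 1.68-fold (log2 difference 0.75, SE 0.165), the tRNA share by 1.52-fold (0.61, SE 0.149) and the protein share by 1.41-fold (0.50, SE 0.13), each with an adjusted p of 0.00875 in the exact permutation test. The protein genes made up 2.39% to 6.0% of a library, the rRNA genes 0.237% to 1.02% and the tRNA genes 0.00526% to 0.0224%. Leaving out any single library kept the total share above vehicle by 0.46 to 0.62 on the log2 scale, and without the library labelled male rapamycin 4 the difference was 0.49 (adjusted p = 0.00583, exact permutation test).

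**Figure D2:**
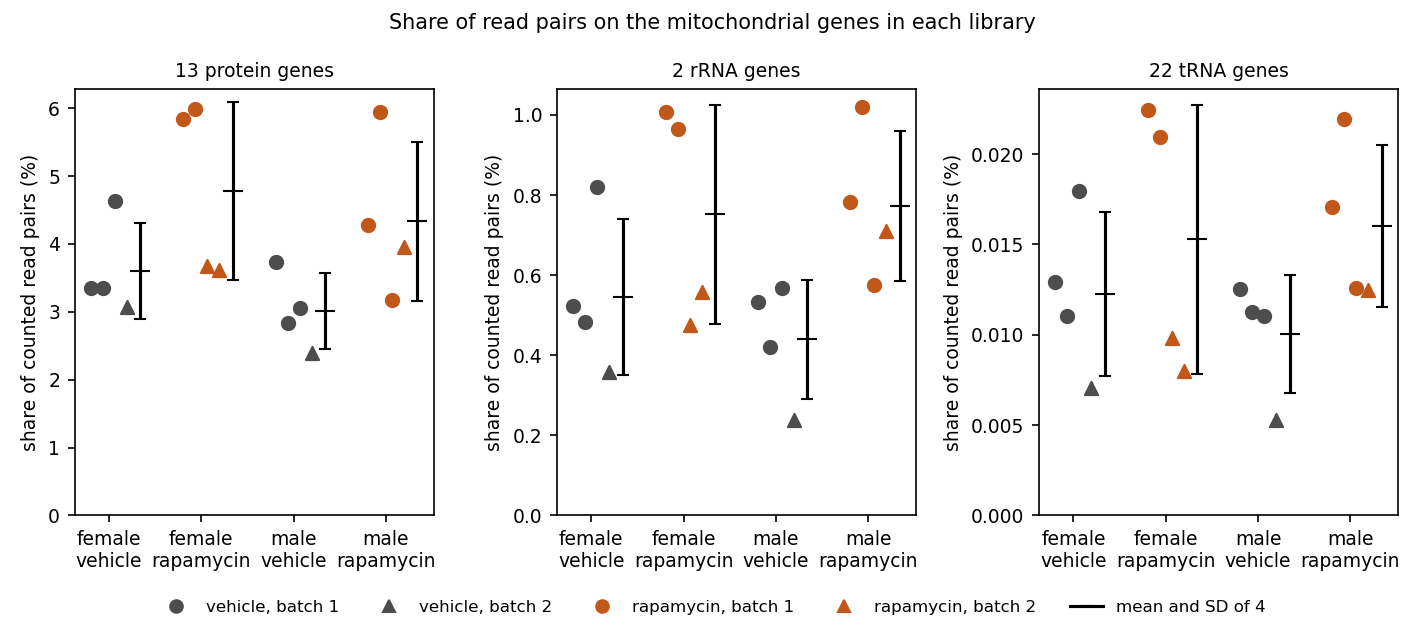
Share of counted read pairs (%) on the 13 protein, 2 rRNA and 22 tRNA genes in each of the 16 libraries; circles are batch 1, triangles batch 2, grey vehicle, orange rapamycin, and bars give the mean ± SD of the 4 libraries of a group. The protein share reaches 6.0% in female rapamycin 2, and among the protein shares triangles are lowest in 3 of the 4 groups.

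Within batch 1 the total share was 5.94 ± 1.46% with rapamycin (n = 5) and 4.06 ± 0.764% with vehicle (n = 6), a log2 difference of 0.56 at given sex (adjusted p = 0.0438, exact permutation test). Within batch 2 it was 4.17%, 4.19% and 4.67% with rapamycin and 3.43% and 2.64% with vehicle, and the treatments did not overlap. In females alone the log2 difference was 0.53 (5.55 ± 1.59% against 4.16 ± 0.898%, n = 4 each, p = 0.0333 in the exact permutation test, which is the smallest that 30 assignments can give). In males it was 0.55 (5.12 ± 1.36% against 3.46 ± 0.687%, n = 4 each, exact permutation p = 0.1, with 0.05 the smallest of 40 assignments), and 0.46 without the library labelled male rapamycin 4 (p = 0.2, exact permutation test with 0.1 as the smallest p).

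Single genes were then compared in the test over all 16553 genes that passed the filter. Of the 30 tested mitochondrial genes 13 passed an adjusted p of 0.05 (edgeR quasi-likelihood test, Benjamini-Hochberg over all genes), all of them higher with rapamycin, where 13.3% of all tested genes passed, 6.46% higher and 6.86% lower. All 30 log2 fold changes were above 0, with a median of 0.60 beside 0.02 for all genes. Leaving out the 11 genes between mt-Co1 and mt-Nd4 left 12 called. An added fold change of at least 1.5, the rule of the study's methods, was met by 7 of the 13 beside 2.26% of all genes (0.689% in the higher direction), and 20 of 30 had an unadjusted p under 0.05 beside 30.4% of all genes.

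The 13 calls depended on how the batches and the gene-length trend of the libraries were treated. Without the batch term 0 of 30 passed (14 at an unadjusted p under 0.05, edgeR), and with each library's slope of relative expression on gene length as a covariate 0 of 30 passed (7 at an unadjusted p under 0.05) while 25 of 30 fold changes stayed above 0 with a median of 0.42. With that covariate 0 of all 16553 genes passed, and without the batch term 142 did, beside 2205 in the main fit. DESeq2 called 15 with the batch term, where it called 3131 of all genes. Leaving out female rapamycin 1 left 8 calls, where 719 of all genes were called. Without the library labelled male rapamycin 4 there were 13, where 1591 of all genes were called.

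mt-Rnr1 was measured at 1990, 1934, 3588 and 1345 CPM in female vehicle 1 to 4 and at 3983, 4135, 1885 and 2103 CPM in female rapamycin 1, 2, 4 and 5. Male libraries had 2136, 1579, 2328 and 883 CPM with vehicle 1 to 4 and 3177, 4515, 2443 and 2851 CPM with rapamycin 1 to 4. The treatments overlapped in batch 1, where female vehicle 3 exceeded 2 of the 5 rapamycin libraries, and did not overlap in batch 2. Its log2 fold change was 0.81 (SE 0.166, adjusted p = 0.0125, edgeR).

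mt-Rnr2 stood at 3268, 2842, 5044 and 2173 CPM in female vehicle 1 to 4 and at 6235, 5649, 2690 and 3344 CPM in female rapamycin 1, 2, 4 and 5. Its male values were 3187, 2628, 3390 and 1449 CPM with vehicle 1 to 4 and 4762, 6049, 3426 and 3993 CPM with rapamycin 1 to 4. Female vehicle 3 was again the highest vehicle library. Its rise was 0.72 on the log2 scale (SE 0.146, adjusted p = 0.0125, edgeR), and both rRNA genes kept their call without each of the 16 libraries in turn.

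Of the 7 subunits of complex I, which passes electrons from NADH to ubiquinone, 6 rose with rapamycin. The rises were 0.80 for mt-Nd3 (log2 fold change, SE 0.178, adjusted p = 0.0145), 0.65 for mt-Nd6 (SE 0.157, adjusted p = 0.0182), 0.55 for mt-Nd1 (SE 0.147, adjusted p = 0.0238), 0.53 for mt-Nd4 (SE 0.132, adjusted p = 0.0200), 0.53 for mt-Nd2 (SE 0.136, adjusted p = 0.0215) and 0.49 for mt-Nd5 (SE 0.137, adjusted p = 0.0290, all edgeR). The seventh, mt-Nd4l, had a log2 fold change of 0.87 (SE 0.321, adjusted p = 0.0784). Without female rapamycin 1, mt-Nd1 (adjusted p = 0.0584), mt-Nd2 (0.0551), mt-Nd4 (0.0505) and mt-Nd5 (0.0706) lost the call, and mt-Nd5 was the least stable of the 13 with a call in 15 of 24 settings.

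mt-Nd6 was measured at 732, 758, 1349 and 645 CPM in female vehicle 1 to 4 and at 1635, 1458, 786 and 685 CPM in female rapamycin 1, 2, 4 and 5. Male libraries had 843, 482, 652 and 433 CPM with vehicle 1 to 4 and 1101, 1379, 806 and 872 CPM with rapamycin 1 to 4. The male groups overlapped by male vehicle 1 alone, and in females vehicle 1, 2 and 3 exceeded rapamycin 5. For mt-Nd3 the CPM values were 31.6, 22.2, 57.2 and 11.8 in female vehicle 1 to 4, 66.6, 65.2, 21.8 and 17.2 in female rapamycin 1, 2, 4 and 5, 32.8, 22.1, 28.0 and 9.67 in male vehicle 1 to 4 and 39.1, 69.3, 33.4 and 20.1 in male rapamycin 1 to 4. Within batch 1 its vehicle libraries other than female vehicle 3 lay below all 5 rapamycin libraries, and within batch 2 both vehicle libraries lay below the 3 rapamycin libraries.

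mt-Nd4l was uneven between replicates, with 42.8 CPM in female rapamycin 2 and 61.9 CPM in female rapamycin 4 but 12.2 and 8.38 CPM in female rapamycin 1 and 5. Its other libraries ranged from 6.40 CPM in male vehicle 3 to 21.9 CPM in female vehicle 4. In female rapamycin 4 its chromosome 1 copy Gm10222 was high too, with 608 read pairs where the other 15 libraries had 68 to 291.

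Cytochrome b of complex III, mt-Cytb, was measured at 5348, 5491, 7930 and 5171 CPM in female vehicle 1 to 4 and at 9983, 9854, 5828 and 6164 CPM in female rapamycin 1, 2, 4 and 5. Its male values were 5521, 4381, 4674 and 4004 CPM with vehicle 1 to 4 and 6914, 9397, 5137 and 5920 CPM with rapamycin 1 to 4. Except for female vehicle 3, all vehicle libraries lay below all rapamycin libraries of the same sex in females, and in males only male vehicle 1 exceeded a rapamycin library. The log2 fold change was 0.52 (SE 0.120, adjusted p = 0.0159, edgeR), called without each of the 16 libraries.

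mt-Co1 of complex IV was measured at 14284, 14391, 19411 and 12068 CPM in female vehicle 1 to 4 and at 23812, 26304, 14099 and 14064 CPM in female rapamycin 1, 2, 4 and 5. Male libraries had 16565, 13259, 13535 and 9611 CPM with vehicle 1 to 4 and 18399, 26408, 14542 and 14615 CPM with rapamycin 1 to 4. The batch 2 rapamycin libraries lay within the range of the batch 1 vehicle libraries, and within batch 2 the treatments did not overlap. Its rise was 0.49 on the log2 scale (SE 0.114, adjusted p = 0.0167, edgeR).

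The remaining subunits of complex IV and both mitochondrial subunits of the ATP synthase, all between mt-Co1 and mt-Nd4 on the map, did not pass the test. Their log2 fold changes were 0.89 for mt-Co2 (SE 0.376, adjusted p = 0.116), 0.72 for mt-Co3 (SE 0.368, adjusted p = 0.195), 0.88 for mt-Atp6 (SE 0.364, adjusted p = 0.11) and 0.59 for mt-Atp8 (SE 0.308, adjusted p = 0.209, all edgeR). mt-Co2 ranged from 35.2 to 145 CPM with vehicle and from 33.4 to 296 CPM with rapamycin, and the SE of these 4 genes ranged from 0.308 to 0.376 where that of mt-Co1 was 0.114. With the gene-length covariate the log2 fold changes of mt-Co2, mt-Co3 and mt-Atp6 turned to -0.15, -0.40 and -0.04.

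The 7 chromosome 1 copies were all tested, and their log2 fold changes ranged from 0.36 to 0.82. Of these 2 passed, Gm10925 (log2 fold change 0.75, adjusted p = 0.0140, edgeR) and Gm28437 (0.65, adjusted p = 0.0218). Whether the read pairs on these copies came from chromosome 1 or from mitochondrial RNA was not tested.

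Of the 15 tested tRNA genes 3 rose with rapamycin. mt-Tp was measured at 47.9, 46.7, 59.3 and 26.2 CPM in female vehicle 1 to 4 and at 86.5, 90.1, 41.2 and 42.4 CPM in female rapamycin 1, 2, 4 and 5. Its male values were 48.8, 37.8, 46.1 and 21 CPM with vehicle 1 to 4 and 72.2, 85.1, 55.0 and 59.2 CPM with rapamycin 1 to 4. All male rapamycin libraries lay above all male vehicle libraries, and female vehicle 3 was the only vehicle library above a rapamycin library of the same batch. mt-Tp had the smallest adjusted p of the mitochondrial genes (log2 fold change 0.80, SE 0.117, adjusted p = 0.00743, edgeR).

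For mt-Ty the CPM values were 5.18, 6.05, 5.55 and 5.89 in female vehicle 1 to 4, 11, 10.3, 7.14 and 6.94 in female rapamycin 1, 2, 4 and 5, 7.67, 6.16, 7.26 and 5.26 in male vehicle 1 to 4 and 9.27, 12.7, 6.88 and 9.06 in male rapamycin 1 to 4. The female groups did not overlap, and in males only rapamycin 3 fell within the vehicle range. Its log2 fold change was 0.61 (SE 0.129, adjusted p = 0.0133, edgeR).

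mt-Te ranged more widely, at 9.38, 7.97, 13.3 and 3.73 CPM in female vehicle 1 to 4, 22.8, 14.6, 7.80 and 3.19 CPM in female rapamycin 1, 2, 4 and 5, 9.22, 6.06, 7.15 and 3.02 CPM in male vehicle 1 to 4 and 13.7, 10.5, 8.21 and 7.16 CPM in male rapamycin 1 to 4. Female rapamycin 5 was lower than all 4 female vehicle libraries. The log2 fold change was 0.72 (SE 0.200, adjusted p = 0.0285, edgeR), and the call was lost without female vehicle 2 (adjusted p = 0.0515) or 4 (0.0536), female rapamycin 1 (0.0891) or 2 (0.0504) and male vehicle 2 (0.0524) or 4 (0.0535).

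The other 12 tested tRNA genes had log2 fold changes from 0.11 (mt-Ta, alanine, SE 0.414) to 0.72 (mt-Th, histidine, SE 0.253, adjusted p = 0.0662, edgeR). The nearest to a call were mt-Tl1 (leucine, log2 fold change 0.71, adjusted p = 0.0649) and mt-Th, with medians of 122 and 28 read pairs per library. The SE of the 12 ranged from 0.193 for mt-Tn to 0.476 for mt-Ti.

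**Figure D3:**
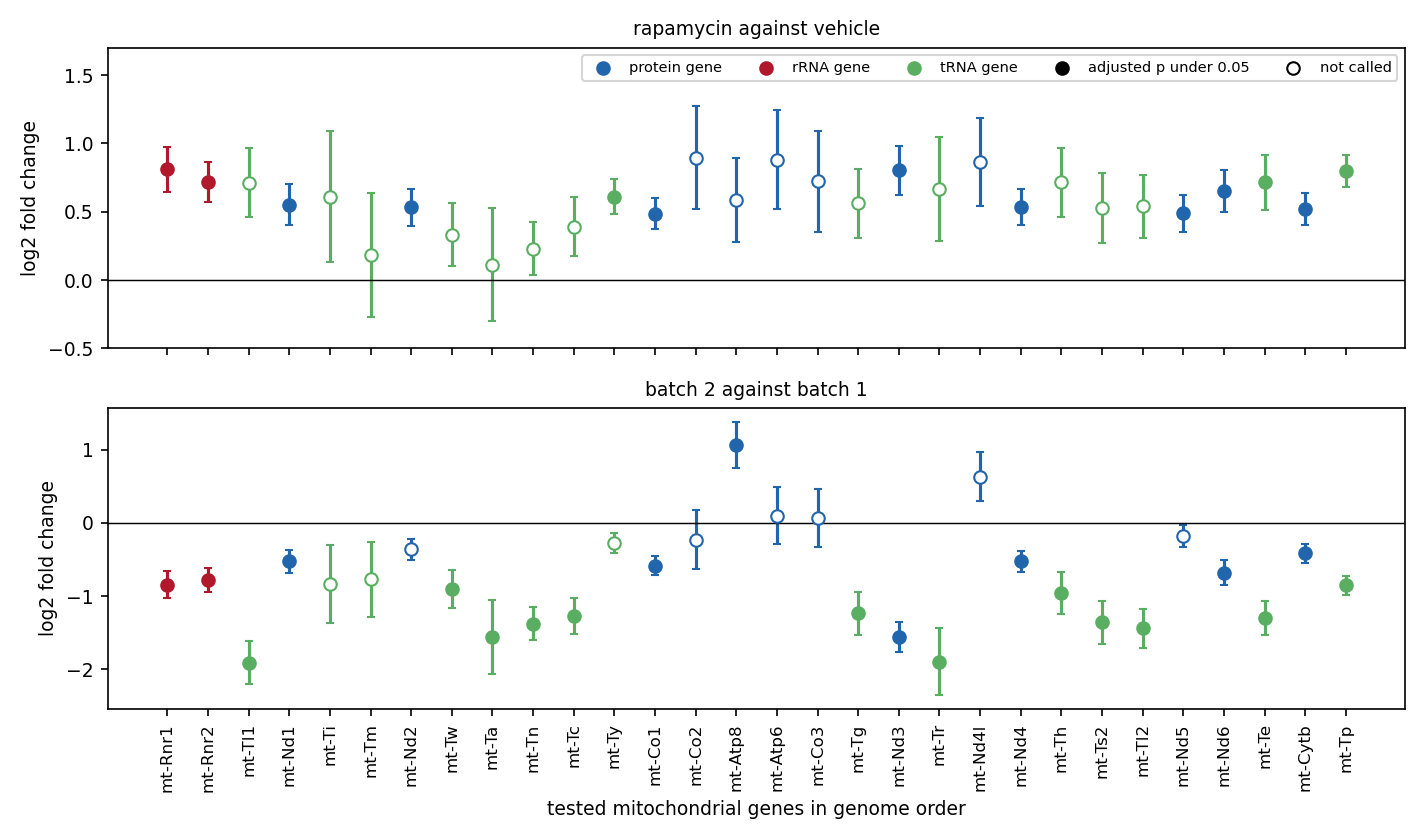
Log2 fold change ± SE of the 30 tested genes in genome order, for rapamycin against vehicle (upper panel) and batch 2 against batch 1 (lower panel), coloured by class, with filled points for adjusted p under 0.05. All 30 points lie above 0 in the upper panel, and in the lower panel the tRNA genes reach -1.91 while mt-Atp8 stands at 1.07.

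Between sexes, 0 of 30 genes passed the treatment test in females (14 at an unadjusted p under 0.05, edgeR, where 23.1% of all genes were; 3 by DESeq2), beside 0.0121% of all genes called, and 29 of 30 fold changes were above 0. In males 0 passed (16 at an unadjusted p under 0.05, where 12% of all genes were; 3 by DESeq2), beside 0% of all genes called, and 30 of 30 were above 0. The interaction of sex and treatment gave 0 calls and 0 genes at an unadjusted p under 0.05 by edgeR, beside 0% of all genes called and 2.17% at that unadjusted p, and 0 calls by DESeq2. For male against female 0 genes passed (5 at an unadjusted p under 0.05, edgeR, where 5.99% of all genes were; 0 by DESeq2), beside 0.0302% of all genes called. The 5 were mt-Nd4l, mt-Nd4, mt-Ts2, mt-Nd6 and mt-Cytb. The total share was 4.29 ± 1.34% in males and 4.86 ± 1.41% in females (n = 8 each), a log2 difference of -0.24 (adjusted p = 0.336, exact permutation test). All these comparisons took the library labelled male rapamycin 4 as male, against its Xist and Y-linked pairs. Without that library the share difference was -0.30. The edgeR counts for the interaction and for male against female stayed at 0 without it.

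Read pairs on the rRNA genes were also set against those on the protein genes, a ratio that does not depend on nuclear transcripts. There were 15.6, 14.4, 17.7 and 11.6 rRNA pairs per 100 protein pairs in female vehicle 1 to 4 and 17.3, 16.1, 12.9 and 15.4 in female rapamycin 1, 2, 4 and 5. Males had 14.3, 14.8, 18.6 and 9.90 with vehicle 1 to 4 and 18.3, 17.2, 18.2 and 18 with rapamycin 1 to 4. The groups overlapped in both sexes, and male vehicle 3 had the highest ratio of all.

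With rapamycin the rRNA to protein ratio was higher by 0.25 on the log2 scale (SE 0.0928, adjusted p = 0.042, exact permutation test). Within batch 1 the difference was 0.13 (adjusted p = 0.175, exact permutation test), and the call was lost when any of 11 of the 16 libraries was left out, with differences from 0.18 (without male vehicle 4) to 0.29 (without male vehicle 3). It held without vehicle 3 of either sex (females 0.28, males 0.29), without female rapamycin 2 or 4, and at 0.20 (adjusted p = 0.0443, exact permutation test) when the library labelled male rapamycin 4 was left out. The tRNA to protein ratio (0.11, adjusted p = 0.226) and the minus to plus strand ratio (0.13, adjusted p = 0.128, both exact permutation tests) did not pass, the latter reaching 0.16 (adjusted p = 0.0486) without female vehicle 3. The strand ratio sets pairs on genes annotated on the minus strand against pairs on plus-strand genes. Strand was not used in counting, so this ratio does not measure from which strand the RNA came.

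**Figure D4:**
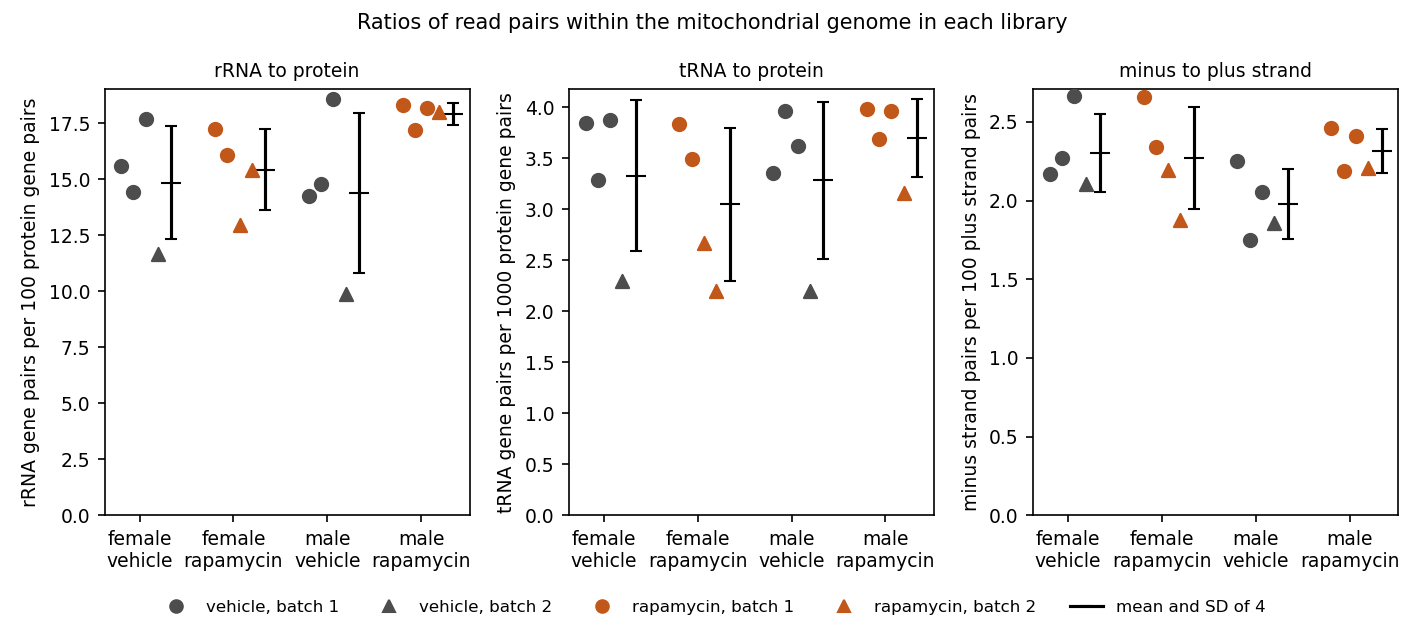
Ratios of read pairs within the mitochondrial genome in each of the 16 libraries: rRNA pairs per 100 protein pairs, tRNA pairs per 1000 protein pairs and minus strand pairs per 100 plus strand pairs, with circles for batch 1, triangles for batch 2 and bars for the mean ± SD of 4. Strand here is that annotated for the gene, as the strand of the reads was not used in counting. In the middle panel the batch 2 triangles, 2.2 to 3.16, lie below all batch 1 circles, 3.29 to 3.99.

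The mitochondrial genes were next compared between the batches. Of the 30 tested, 20 were lower and 1 was higher in batch 2 (edgeR, adjusted p under 0.05), where 35.5% of all tested genes passed, 19.1% higher and 16.5% lower, and 45.1% had an unadjusted p under 0.05. The median log2 fold change was -0.81 over the 30 genes, -1.27 over the 15 tRNA genes and -0.36 over the 13 protein genes, though single genes of both classes overlapped. With the gene-length covariate 13 of the 21 calls were kept, where 2454 of all genes were called.

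The share of all 37 genes was 3.82 ± 0.796% in batch 2 (n = 5) and 4.92 ± 1.45% in batch 1 (n = 11), a log2 difference of -0.45 at given sex and treatment (adjusted p = 0.0286, exact permutation test, 384 assignments). The rRNA share fell by 0.75 (adjusted p = 0.0122) and the protein share by 0.41 on the log2 scale (adjusted p = 0.0286, both exact permutation tests). The tRNA share differed most, at 0.00851 ± 0.00277% in batch 2 and 0.0156 ± 0.00457% in batch 1, a log2 difference of -1.0 (adjusted p = 0.00911, exact permutation test).

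Ratios within the mitochondrial genome differed between the batches as well. The tRNA to protein ratio ranged from 3.29 to 3.99 tRNA pairs per 1000 protein pairs in batch 1 and from 2.2 to 3.16 in batch 2, without overlap (log2 difference -0.59, adjusted p = 0.00911, exact permutation test). The rRNA to protein ratio differed by -0.34 (adjusted p = 0.0137) and the minus to plus strand ratio by -0.19 (adjusted p = 0.0286, both exact permutation tests). All 7 measures lost their call without male vehicle 4 (adjusted p from 0.0729 to 0.0833, with fewer assignments possible), and the total and protein shares and the strand ratio lost it without female rapamycin 5 (adjusted p = 0.0547 for the total share at -0.41 and the protein share at -0.37, and 0.0781 for the strand ratio at -0.14). Without female vehicle 4 the strand ratio differed by -0.22 (adjusted p = 0.0521).

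Among the tRNA genes the largest batch differences were -1.91 for mt-Tl1 (log2 fold change, SE 0.296) and -1.90 for mt-Tr (arginine, SE 0.456), followed by mt-Ta at -1.56, mt-Tl2 at -1.44, mt-Tn at -1.38, mt-Ts2 (serine) at -1.36, mt-Te at -1.30, mt-Tc at -1.27 and mt-Tg (glycine) at -1.23. mt-Tl1, which follows mt-Rnr2 on the map, had 5.65 to 16.2 CPM in the batch 1 libraries against 1.12 to 5.97 CPM in those of batch 2, so that the batches overlapped slightly. mt-Ty, called for treatment, had a batch difference of only -0.27 (SE 0.142, adjusted p = 0.142, edgeR), and mt-Tp fell by 0.85 (SE 0.131, adjusted p = 1.69e-04, edgeR).

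Protein genes ranged from a fall of 1.56 on the log2 scale for mt-Nd3 (SE 0.208, adjusted p = 4.95e-05) to a rise of 1.07 for mt-Atp8 (SE 0.316, adjusted p = 0.0143, edgeR). mt-Atp8 had 8.24, 4.2, 2.62, 3.36 and 6.75 CPM in the 5 batch 2 libraries, in the order of the groups, and 1.04 to 5.66 CPM in batch 1, so that the batches overlapped. Batch differences of the well-counted protein genes were smaller, at -0.59 for mt-Co1, -0.53 for mt-Nd1, -0.52 for mt-Nd4, -0.42 for mt-Cytb and -0.68 for mt-Nd6, all called. mt-Nd5, the longest of the 37 genes, had -0.18 (SE 0.149, adjusted p = 0.365, edgeR) and made up 8.52% to 11.2% of the mitochondrial pairs in batch 2 against 7.28% to 8.38% in batch 1, without overlap.

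Because of this, the treatments were compared once more within each batch by overlap. In batch 1 (5 rapamycin, 6 vehicle libraries) all rapamycin libraries lay above all vehicle libraries for 1 of 30 genes, mt-Tg, beside 2.22% of all genes. In batch 2 (3 rapamycin, 2 vehicle libraries) they did so for 15 of 30 beside 13.3% of all genes, namely mt-Rnr1, mt-Rnr2, mt-Nd1, mt-Nd2, mt-Nd3, mt-Nd4, mt-Nd6, mt-Co1, mt-Co2, mt-Atp6, mt-Cytb, mt-Ti, mt-Tr, mt-Ty and mt-Tp. No mitochondrial gene showed the opposite order in either batch, where 2.37% and 12.9% of all genes did. In the fit of batch 1 alone 14 of 31 tested genes were called, 9 of them among the 13 above, where 1240 of all genes were called.

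The gene-length trend was set beside the mitochondrial share of each library. In each library the log2 expression of nuclear genes, relative to their mean over the libraries, was fitted on log2 exon length. The slope of this fit had a median of 0.0254 with vehicle (-0.00083 to 0.0972) and of -0.0279 with rapamycin (-0.126 to 0.0644). It compares libraries and does not give the relation of expression to gene length within a library. The 3 libraries with the highest mitochondrial shares, female rapamycin 1 and 2 and male rapamycin 2, had the 3 lowest slopes at -0.119, -0.126 and -0.120. Female vehicle 3, with the next highest share of 5.47%, had instead a slope of 0.0825, the third highest, and male rapamycin 3, with a share of 3.75%, had 0.0123. The 4 astrocyte markers, 1 of them called, summed to 1288 to 1751 CPM with vehicle and 1627 to 2196 CPM with rapamycin, so that the treatments overlapped, and all 4 were above 0 in each library. The 4 oligodendrocyte markers, 0 of them called, summed to 3279 to 5298 CPM with vehicle and 3263 to 8728 CPM with rapamycin. Choroid plexus markers summed to 11.9 to 1906 CPM with vehicle and 23.2 to 184 CPM with rapamycin. The part of the length trend and of these cell types in the mitochondrial results was not tested beyond the covariate fit given above.

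Nuclear genes whose products act on the mitochondrial genome were compared in the same fit. Of 16 genes for transcription and replication of mitochondrial DNA, 0 passed between treatments (edgeR; 1 by DESeq2; median log2 fold change 0.05), and the 3 smallest p-values belonged to Mrpl12, a ribosomal protein listed here for its binding of the RNA polymerase (0.25, adjusted p = 0.0577), the single-stranded DNA binding protein gene Ssbp1 (0.31, adjusted p = 0.0783) and Mterf2 (0.15, adjusted p = 0.350). The RNA polymerase gene Polrmt was at 30.8 ± 5.80 CPM with vehicle and 30.8 ± 3.54 CPM with rapamycin, and Tfam, which packages the genome and starts its transcription, was at 32.7 ± 4.75 and 32.6 ± 4.25 CPM (mean ± SD, n = 8 each). These 2 are named after their values were seen.

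Of 22 genes for processing and stability of mitochondrial RNA, 4 rose and 1 fell with rapamycin, with a median log2 fold change of 0.02, beside 6.46% of all genes higher and 6.86% lower. The rises were Rpusd3, a pseudouridine synthase (log2 fold change 0.65, SE 0.193, adjusted p = 0.0343), Hsd17b10, a subunit of the enzyme that cuts tRNAs at their 5′ ends (0.38, SE 0.115, adjusted p = 0.0388), Pnpt1, a ribonuclease of the RNA degrading complex (0.34, SE 0.0904, adjusted p = 0.0242), and Slirp (0.32, SE 0.103, adjusted p = 0.0499, edgeR). Lrpprc, whose product binds Slirp protein and stabilises mitochondrial mRNAs, fell from 76.0 ± 4.39 to 63.5 ± 5.67 CPM (n = 8 each, log2 fold change -0.27, SE 0.0678, adjusted p = 0.0212, edgeR). The 5 calls fell to 2 or 3 without any of 9 libraries (all vehicle libraries except male vehicle 1, female rapamycin 5 and the library labelled male rapamycin 4), to 0 without female rapamycin 1 or 2 or male rapamycin 2, and to 0 with the gene-length covariate.

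Among 8 nuclear regulators of mitochondrial genes 1 passed, a share close to the 13.3% of all genes called (6.86% lower). This was Ppargc1b, which fell from 9.10 ± 3.67 to 5.78 ± 3.82 CPM (mean ± SD, n = 8 each, log2 fold change -0.85, SE 0.219, adjusted p = 0.0219, edgeR). The list's median was -0.04. Its relatives Ppargc1a (-0.33, adjusted p = 0.0672) and Pprc1 (-0.23, adjusted p = 0.139) did not pass, and the count was 0 without female rapamycin 1 or 2 and 2 without female rapamycin 4 or male rapamycin 3. Of 22 mitochondrial tRNA synthetases and related enzymes 0 passed (edgeR; 1 by DESeq2; median 0.02), the smallest p-values being those of Wars2 (-0.40, adjusted p = 0.0736), Tars2 (0.19, adjusted p = 0.0926) and Fars2 (0.24, adjusted p = 0.126).

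Nuclear-encoded subunits of the same complexes were compared as well. Of 72 subunits 51 rose and 0 fell, beside 6.46% of all genes higher and 6.86% lower, with a median log2 fold change of 0.35 beside 0.02 for all genes: 25 of 36 in complex I, 5 of 9 in complex III, 10 of 11 in complex IV and 11 of 16 in the ATP synthase. The smallest p-values were those of Ndufb7 (log2 fold change 0.47, adjusted p = 0.0119) and Ndufa13 (0.51, adjusted p = 0.0129) of complex I and Cox7c of complex IV (0.47, adjusted p = 0.0133, edgeR). Of 76 tested mitochondrial ribosomal protein genes 26 rose and 0 fell (median 0.25), beside the same 6.46% and 6.86% of all genes, led by Mrpl18 (0.44, adjusted p = 0.0128), Mrps15 (0.34, adjusted p = 0.0152) and Mrpl28 (0.39, adjusted p = 0.0153, edgeR).

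Both counts depended on single libraries. Leaving out female rapamycin 1 left 13 of the 51 subunit calls and 10 of the 26 ribosomal protein calls in number. Leaving out female rapamycin 2 gave 18 and 12, and leaving out male rapamycin 2 gave 16 and 13. Over all genes the calls numbered 719, 868 and 988 without these libraries, beside 2205 in the main fit. The subunit count was 25 without male vehicle 4 and 33 without the library labelled male rapamycin 4, and the ribosomal count was 48 without female rapamycin 4. With the gene-length covariate 0 of either list passed, and 0 members of the 6 lists passed in either sex alone (edgeR).

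The same lists were also compared between batches, where 16.5% of all genes were lower and 19.1% higher in batch 2. Of the 72 subunits 70 were lower and 0 higher (median -0.50). Of the ribosomal proteins 58 were lower (median -0.37). RNA processing genes had 7 lower and 0 higher, and transcription genes had 3 lower and 2 higher. Nuclear regulators had 2 higher, and tRNA synthetases had 5 higher and 7 lower. Given the list sizes stated above, whether the higher counts exceeded the share of all genes was not tested. The largest batch difference in these lists was that of the leucyl-tRNA synthetase gene Lars2 at -3.96 (SE 0.334, adjusted p = 9.49e-07, edgeR), named after its value was seen. Its level was uneven, at 480 ± 366 CPM with vehicle and 429 ± 373 CPM with rapamycin (mean ± SD). The nuclear rRNA gene Rn18s-rs5 was also lower in batch 2, as given above. Whether the read pairs on Lars2 came from its mRNA was not tested.

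**Figure D5:**
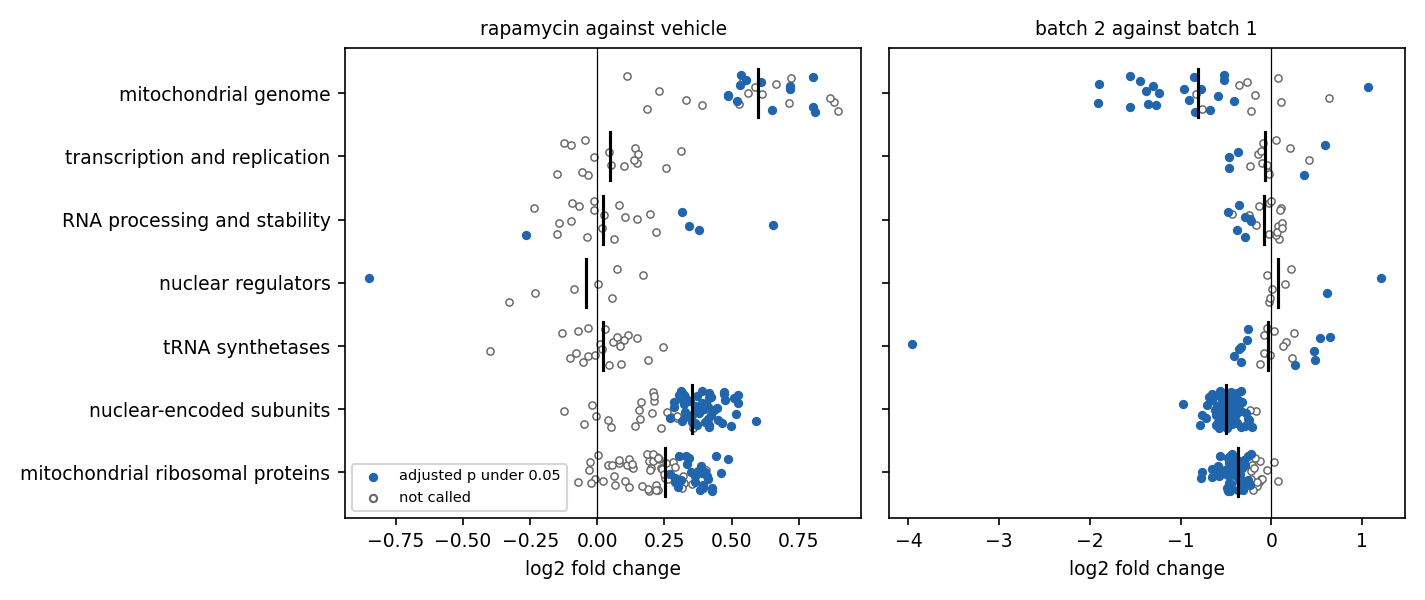
Log2 fold change of each tested gene in the mitochondrial genome and in 6 lists of nuclear genes, for rapamycin against vehicle (left) and batch 2 against batch 1 (right); filled points have an adjusted p under 0.05 and bars mark list medians. The medians of the mitochondrial genome, 0.60 and -0.81, lie on the same sides of 0 as those of the nuclear-encoded subunits, 0.35 and -0.50.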

How the data were processed

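The authors deposited counts of read pairs per gene for 16 libraries of poly(A)-selected cortical RNA. Per the labels and the study's methods, adapters and the first bases of reads were removed, and the tools named are FastQC 0.11.9, Trimmomatic 0.39, Trim Galore, HISAT2 2.2.1 (GRCm38/mm10) and featureCounts 2.0.3. Per the file header, pairs were counted on exons by gene name without strand, and pairs with several places or several genes were not counted. The same counts, deposited again in 4 tables by group, were not used.

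Here counts were scaled with TMM factors and tested in edgeR 4.0.16 (R 4.3.3; filterByExpr, minimum count 10; terms sex, batch and treatment, or 4 groups and batch), with Benjamini-Hochberg adjustment over 16553 genes. The biological coefficient of variation was 0.186. A slope of nuclear genes' deviation from their mean log2 CPM on log2 exon length was computed for each library. Log2 shares and ratios were tested by exact permutation of labels within the other factors. DESeq2 1.42.0, other scalings, no filter, other terms, batch 1 alone and leaving out each library were alternatives. Sequences and positions were those of GENCODE vM21 transcripts (GRCm38, 37 of 37 positions matched), and copies were sought with BLAST+ 2.17.0 (95% identity, 40 bases) in 141730 other transcripts. Scripts were tested on simulated data.

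All mitochondrial genes may be named. Of the nuclear lists the 3 members with the smallest treatment p, and each transcription or processing gene called, are named. The members, lists and tests were chosen with earlier results of these data known. Depth was 16393501 to 20593089 pairs per library. Intervals and upper limits of 3 counts cover counting error only, which weighs most on the tRNA genes.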

Additional observations from a re-analysis of the deposited data

Results flagged for a closer look

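Of 148 tests of a gene, a share or a ratio in a group of 4 libraries, 6 found a library far from the other 3, and chance alone marks about 1 in 20 such tests. In 4 of them the library was female vehicle 3, with 3959 CPM of mt-Nd2 (others 2428 to 2576), 145 CPM of mt-Co2 (58.7 to 60.8), 1349 CPM of mt-Nd6 (645 to 758) and 7930 CPM of mt-Cytb (5171 to 5491). This library also had the highest total mitochondrial share among the vehicle libraries, 5.47%. The others were mt-Atp8 in female vehicle 4 at 8.24 CPM (1.47 to 1.90) and mt-Nd4l in male vehicle 4 at 13.3 CPM (6.40 to 7.08), each the only batch 2 library of its group.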

How the results depend on the processing

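For mitochondrial genes called between treatments (13), the count was 7 with a fold change of at least 1.5, 21 of 35 tested genes without the low-count filter, 0 without the batch term, 0 with the length slope covariate and 8 to 17 when single libraries were left out. Over all genes 2205 were called in the main fit, 2626 without the filter, 142 without the batch term and 0 with the covariate. Leaving out single libraries gave 719 to 3352 of all genes. In females the mitochondrial count was 17 without the filter, 3 by DESeq2, 2 in batch 1 alone and 0 to 2 without single libraries. In males it was 18 without the filter, 3 by DESeq2 and 0 to 1 without single libraries. Counts over all genes in these settings are not given here for either sex alone. The batch count of 21 became 13 with the slope covariate, and the sex count of 0 became 2 without the filter.

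DESeq2 called 2 nuclear regulators, 1 transcription gene and 1 tRNA synthetase between treatments. The slope covariate left 0 regulators, 0 subunits, 0 RNA processing genes and 0 ribosomal proteins between treatments, and between batches 1 regulator, 28 subunits, 0 RNA processing genes, 3 transcription genes, 5 tRNA synthetases and 16 ribosomal proteins. Leaving out single libraries gave treatment counts of 0 to 2 regulators, 13 to 61 subunits, 0 to 6 RNA processing genes, 0 to 2 transcription genes, 0 to 2 tRNA synthetases and 10 to 48 ribosomal proteins, and 2 to 7 RNA processing genes between batches.

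In the same way the log2 treatment difference of the rRNA to protein ratio ranged from 0.18 to 0.29 (0.13 in batch 1 alone) and that of the strand ratio from 0.087 to 0.16. The batch differences ranged from -0.53 to -0.40 for the total, -0.47 to -0.36 for the protein, -0.91 to -0.63 for the rRNA and -1.14 to -0.91 for the tRNA share, and from -0.44 to -0.23, -0.67 to -0.53 and -0.23 to -0.14 for the rRNA, tRNA and strand ratios. The sex difference of the rRNA to protein ratio, 0.04, ranged from -0.035 (without the library labelled male rapamycin 4) to 0.11 and was -0.0029 without male vehicle 3.

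The log2 fold changes below 0 were those of mt-Tw (-0.0086), mt-Ta (-0.080), mt-Co2 (-0.15), mt-Atp6 (-0.035) and mt-Co3 (-0.40) with the slope covariate, and of mt-Ta without the batch term (-0.051), without female vehicle 3 (-0.0003), male vehicle 2 (-0.0003), 3 (-0.04) or 4 (-0.044) or male rapamycin 1 (-0.02), mt-Ta reaching 0.42 without male vehicle 1. Fewer libraries lower the power of a fit, and for the other settings the cause was not tested.

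Replicate numbers do not pair the mice in the labels. In 6 of 7 same-numbered pairs deviations correlated above 0.1 (r from -0.16 to 0.67), and every library numbered 4 is of batch 2. With the number as a replicate block in place of batch 14 genes were called, 12 of them among the 13, where 1298 of all genes were called. The alternative without the 11 genes between mt-Co1 and mt-Nd4 was chosen after seeing the data.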
